A study of Mus musculus with 41 samples.

Results

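A set of 9 genes used as markers of border-associated macrophages, Mrc1, Ms4a7, Pf4, Cd163, Lyve1, F13a1, Cbr2, Folr2 and Stab1, were followed in RNA from sorted mouse cerebellar microglia. They were picked by symbol because they mark these macrophages, and all 9 were present among the 24015 genes of the deposited table. The samples were 41 libraries in 10 groups. NPC mice carried the strain label BALB/cNctr-Npc1m1N/J, a line with a mutant Npc1 allele that serves as a model of the lysosomal storage disease Niemann-Pick type C. They were sampled untreated at 1, 3 and 6 weeks of age (4 libraries each) and at 9 weeks (3 libraries). NPC mice at 9 weeks that were given PLX5622, an inhibitor of the CSF1 receptor on which microglia depend for survival, gave 5 libraries, and their 9-week NPC control arm gave 5. Wild-type (WT) mice labelled balb/c were sampled untreated at 1, 3, 6 and 9 weeks (4 libraries each). The labels did not say whether NPC and WT mice were littermates. Cells of every group had passed the same sort for CD11b and Tmem119, a microglial surface protein, so each value below describes cells kept by that gate.

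Border-associated macrophages live in the meninges, the perivascular spaces and the choroid plexus, outside the brain tissue that microglia occupy. They take up debris, lipoproteins and fluid-borne proteins at the brain's edges, and many of their markers are scavenger receptors or secreted factors. Several of these markers are shared with macrophages of other organs, and Pf4 and Lyve1 are also made by platelets and lymphatic vessels, so no marker in the set belongs to border macrophages alone.

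Recovered reads per library ranged between 23.2 M and 40.5 M, and 3 reads, the floor used here, corresponded to between 2.10 and 3.97 normalized counts. A normalized count is a gene's read count divided by the size factor of its library. The mutated gene followed the labels: Npc1 was between 291 and 787 normalized counts in the NPC libraries and between 2606 and 7386 in the WT libraries, with no overlap. Tmem119 and P2ry12, which define microglia, were above the floor in all 41 libraries. Replicate C of the 3-week NPC group stood apart, with the lowest correlation to its own group (r = 0.929), the fewest genes at 3 or more reads (12003), and relatively little RNA of long transcripts, so results that rest on it are given without it where that ended a call. In bulk RNA, fewer cells of a type and less RNA per cell cannot be told apart.

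The promoters of Mrc1, Ms4a7, Cbr2 and Folr2 are shown to make their sequence visible. RefSeq windows reaching from 250 bases before to 50 bases after a transcription start (build GRCm38.p6, whereas the submitters aligned to mm9) were found for 8 of 9 members, 11 windows in all. Mrc1, Cbr2 and Folr2 fell together with age in both genotypes, and Ms4a7 was the member raised most in NPC mice. Capitals mark 3 motifs on either strand. GAGGAA is the core bound by PU.1 and reads TTCCTC on the other strand. TGCTGA is a core bound by MAF factors and reads TCAGCA there. GGGCGG is the GC box and reads CCGCCC there.
Mrc1 (chr2:14229164-14229463, plus strand): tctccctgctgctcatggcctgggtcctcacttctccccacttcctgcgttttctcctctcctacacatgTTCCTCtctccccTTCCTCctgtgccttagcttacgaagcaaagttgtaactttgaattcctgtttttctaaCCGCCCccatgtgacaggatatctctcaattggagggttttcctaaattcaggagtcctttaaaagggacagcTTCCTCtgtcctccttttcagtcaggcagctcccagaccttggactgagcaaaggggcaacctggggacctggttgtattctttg
Ms4a7 (chr19:11336097-11336396, minus strand, start site 1 of 2): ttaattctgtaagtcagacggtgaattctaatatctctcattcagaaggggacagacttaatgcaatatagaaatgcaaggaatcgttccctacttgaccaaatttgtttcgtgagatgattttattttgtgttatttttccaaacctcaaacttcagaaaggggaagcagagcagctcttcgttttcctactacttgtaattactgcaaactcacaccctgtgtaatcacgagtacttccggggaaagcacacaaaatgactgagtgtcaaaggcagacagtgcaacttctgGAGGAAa
Cbr2 (chr11:120731972-120732271, minus strand): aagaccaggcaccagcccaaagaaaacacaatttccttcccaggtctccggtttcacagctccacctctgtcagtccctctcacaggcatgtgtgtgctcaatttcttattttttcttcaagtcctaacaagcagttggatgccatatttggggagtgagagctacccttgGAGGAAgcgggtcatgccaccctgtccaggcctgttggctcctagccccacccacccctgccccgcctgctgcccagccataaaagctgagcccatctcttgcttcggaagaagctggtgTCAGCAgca
Folr2 (chr7:101857141-101857440, minus strand, start site 1 of 2): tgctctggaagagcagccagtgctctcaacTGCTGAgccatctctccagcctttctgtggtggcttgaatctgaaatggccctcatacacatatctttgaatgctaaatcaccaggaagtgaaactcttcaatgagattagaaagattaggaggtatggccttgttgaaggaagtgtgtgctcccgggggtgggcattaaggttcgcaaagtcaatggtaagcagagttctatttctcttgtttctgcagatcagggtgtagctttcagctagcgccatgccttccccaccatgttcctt

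GAGGAA lay in 7 of the 11 member windows, against 28.3% of all 32851 mouse windows of this length, and TGCTGA lay in 4 of 11, against 19.5% of all windows. GGGCGG lay in 1 of 11 member windows, against 35.7%. Neither CACGTG, the E-box of TFEB and MITF (7.15% of all windows), nor TATAAA (13.6%) was in any of the 11. The Mrc1 window held 3 copies of GAGGAA, the highest number in 1 window, and the windows of F13a1 held 2 and 1, while the matches of different motifs did not overlap. These matches describe letters only. Ms4a7, F13a1 and Folr2 had more than 1 window, and each window was counted separately. Those of Ms4a7 and of F13a1 lie near each other, and those of Folr2 lie farther apart.

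Members separated by level. Per kilobase of exon, Stab1, a scavenger receptor, averaged 2587 normalized counts over the 41 libraries. Mrc1, the mannose receptor, averaged 352 normalized counts per kilobase, Ms4a7, a membrane protein of the MS4A family, 153, Folr2, the folate receptor beta, 129, and Cbr2, a carbonyl reductase, 109. Pf4, a chemokine that platelets also store, averaged 19.2 normalized counts per kilobase and F13a1, the catalytic subunit of coagulation factor XIII, 16.6. Cd163, the receptor that clears haemoglobin, and Lyve1, a hyaluronan receptor, were at 1.68 and 1.52 normalized counts per kilobase.

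Detection separated the members too. Mrc1, F13a1, Cbr2, Folr2 and Stab1 reached 3 reads in 41 of 41 libraries, and Ms4a7 reached them in 40. Pf4 reached 3 reads in 34 libraries, Cd163 in 23 and Lyve1 in 16, while Lyve1 was at 0 in 18 libraries. Among 24 other genes known from border macrophages, 15 reached 3 reads in all 41 libraries, among them Dab2, Igfbp4, Colec12, Ms4a6d, Siglec1, Fcna and Maf. At the other end, Cd209d was at 0 in all 41 libraries, Cd209b in 40, Cd209g in 37 and Cd209f in 22. How much of each member's RNA came from border macrophages was not tested. Of the exon bases used for these levels, 112 of Stab1 overlap the opposite-strand gene Nt5dc2 and 14 of F13a1 overlap Gm30489, and the library chemistry does not keep strand, so reads there cannot be assigned.

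**Figure D1:**
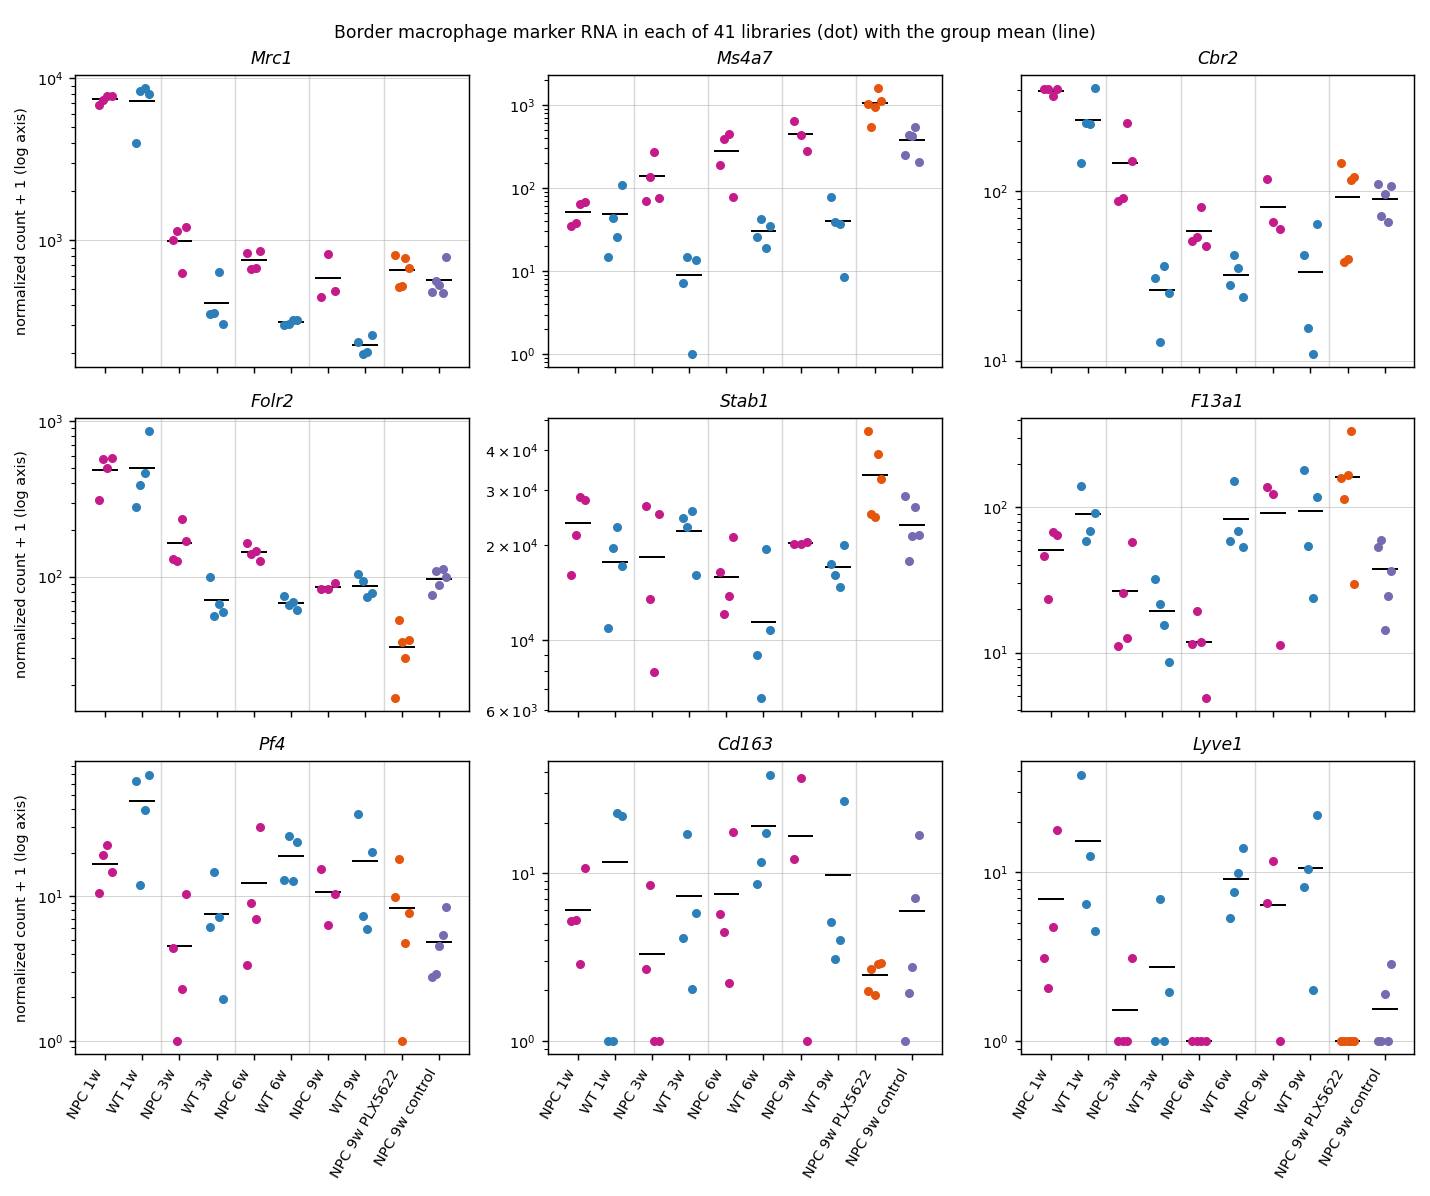
Normalized count plus 1 (log axis) of each member in every library (dots, coloured by group) with the mean of each group (lines); a gene at 0 sits at 1. Mrc1 and Folr2 stand highest at 1 week in both genotypes, Ms4a7 is at 68.7 or more in all NPC libraries from 3 weeks on, and Cd163 and Lyve1 reach at most 37.7.

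Mrc1 was the member with the steepest age course. In NPC mice it had 6805, 7382, 7779 and 7810 normalized counts at 1 week, 1000, 1135, 623 and 1207 at 3 weeks, 830.0, 659.9, 671 and 859 at 6 weeks, and 447, 821 and 488 at 9 weeks. WT mice had 3992, 8365, 8720 and 7976 at 1 week, 351, 353, 631 and 302 at 3 weeks, 297, 305, 319 and 321 at 6 weeks, and 235, 197, 203 and 258 at 9 weeks. No library older than 1 week reached a 1-week library in either genotype, and WT replicate A lay well below the other 3 WT libraries at 1 week.

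In NPC mice 4 members fell between 1 and 3 weeks, out of 9 tested, in limma with Benjamini-Hochberg adjustment over 14046 genes, where 12.8% of all genes tested fell. Mrc1 fell by 2.95 ± 0.23 (SE) on the log2(normalized count + 1) scale (adjusted p = 1.02e-10), a 7.73-fold difference. Folr2 fell by 1.57 ± 0.28 (adjusted p = 7.72e-05), with 128, 125, 233 and 169.7 normalized counts at 3 weeks against 310.0, 567, 500.2 and 575 at 1 week. Cbr2 fell by 1.57 ± 0.45 (adjusted p = 0.0102), with 87.2, 90.7, 253 and 151 at 3 weeks against 401, 404, 365 and 403 at 1 week. The ages did not overlap for any of these 3 genes.

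The remaining one was Pf4, at -2.33 ± 0.76 (adjusted p = 0.0237), with 3.35, 0, 1.30 and 9.43 normalized counts at 3 weeks against 9.46, 18.2, 21.7 and 13.7 at 1 week. The Pf4 call was lost with a pseudocount of 8 (adjusted p = 0.0681), quantile normalization (0.124), edgeR (0.0929), only the compared groups in the fit (0.119), and without NPC replicate B (0.0547) or C (0.065) at 1 week or replicate B at 3 weeks (0.103). For Ms4a7 all 4 NPC libraries at 3 weeks (68.7, 136, 266 and 75.4) lay above all 4 at 1 week (33.6, 36.5, 63.1 and 66.2), but the change of 1.28 ± 0.74 did not pass (adjusted p = 0.21). F13a1 changed by -1.13 ± 0.70 (adjusted p = 0.246).

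In WT mice 7 members fell between 1 and 3 weeks by the same test, beside 18.4% of all genes tested. Mrc1 fell by 4.14 ± 0.23 (adjusted p = 2.78e-14), a 17.7-fold difference. Folr2 fell by 2.74 ± 0.28 (adjusted p = 6.16e-09), with 98.2, 54.6, 65.5 and 58.5 normalized counts at 3 weeks against 279, 385, 465.9 and 863 at 1 week. Cbr2 fell by 3.34 ± 0.45 (adjusted p = 1.16e-06), with 30.0, 11.9, 35.4 and 24 at 3 weeks against 146, 253, 249 and 409 at 1 week. For these 3 genes the ages did not overlap. The median change over the 9 members was -2.58, beside -0.0065 over all genes tested.

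The other 4 members that fell in WT mice were scarcer. F13a1 fell by 2.28 ± 0.70 (adjusted p = 0.012), with 31, 20.5, 14.6 and 7.67 normalized counts at 3 weeks against 139.6, 57.4, 67.6 and 90.8 at 1 week, and its ages did not overlap. Pf4 fell by 2.66 ± 0.76 (adjusted p = 0.0072), with 5.17, 13.6, 6.24 and 0.959 against 61.8, 11, 38.5 and 68.5, and replicate B at 1 week lay below the highest 3-week library. Ms4a7 fell by 2.58 ± 0.74 (adjusted p = 0.0072), with 6.20, 13.6, 0 and 12.5 at 3 weeks against 13.6, 43.1, 25.0 and 108 at 1 week. That call ended without the WT 3-week replicate C, the library at 0 (adjusted p = 0.057). Lyve1 fell by 2.5 ± 0.86 (adjusted p = 0.0244), with 0, 5.97, 0 and 0.959 against 37.1, 5.52, 11.4 and 3.49. At these read numbers the Lyve1 call was lost under quantile normalization (adjusted p = 0.0508), edgeR (0.0791) and DESeq2 (0.0589) and without WT replicate A at 1 week (0.11) or replicate A (0.0806) or C (0.0773) at 3 weeks. With only the compared groups fitted, Lyve1 missed the filter on low values and was not tested.

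Stab1, the most abundant member, did not pass in either genotype. At 3 weeks it had 26752, 13505, 7900 and 25104 normalized counts in NPC mice against 16080, 21610, 28454 and 27864 at 1 week. WT mice had 24342, 22809, 25765 and 16157 at 3 weeks against 10921, 19612, 22818 and 17258 at 1 week. Its change with age was -0.49 ± 0.31 in NPC mice (adjusted p = 0.263) and 0.36 ± 0.31 in WT mice (adjusted p = 0.392), with the ages overlapping in both genotypes.

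**Figure D2:**
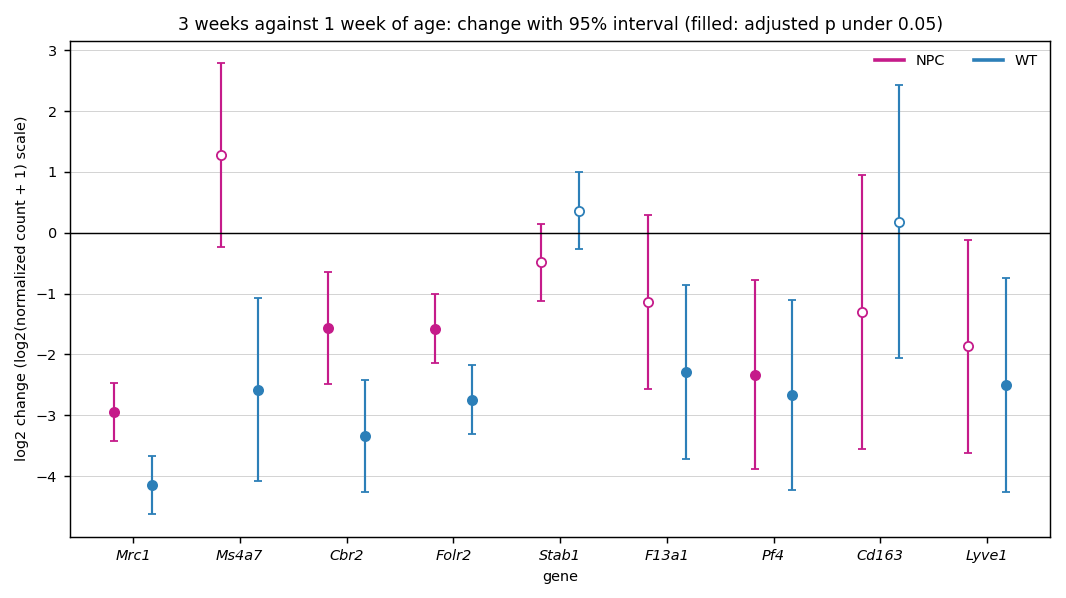
Change between 3 weeks and 1 week of age for each member (log2(normalized count + 1) scale) in NPC mice and in WT mice, with 95% intervals; filled points passed an adjusted p of 0.05. Mrc1 sits at -2.95 in NPC mice and at -4.14 in WT mice, and Stab1 lies near 0 in both.

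The difference between the genotypes' age changes was itself tested, as the NPC minus WT difference at 3 weeks less that at 1 week. No member passed in limma, 4 had an unadjusted p under 0.05, and 1.06% of all genes passed in either direction. Mrc1 gave 1.19 ± 0.33 (adjusted p = 0.074), Ms4a7 3.86 ± 1.04 (adjusted p = 0.0638), Folr2 1.17 ± 0.39 (adjusted p = 0.145), Cbr2 1.77 ± 0.63 (adjusted p = 0.173) and Stab1 -0.85 ± 0.44 (adjusted p = 0.298). On recovered reads, edgeR passed Mrc1 (adjusted p = 0.0447) and Ms4a7 (adjusted p = 0.0318), and DESeq2 passed these with Cbr2 (0.0359) and Folr2 (0.0374). Mrc1 also passed in limma with quantile normalization (0.0389), without WT replicate A at 1 week (0.0122), without WT replicate C at 3 weeks (0.026) or without NPC replicate C at 3 weeks (0.0231). Ms4a7 passed there without WT replicate A at 1 week (0.0398), WT replicate D at 3 weeks (0.0492) or NPC replicate A at 3 weeks (0.0375).

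Between 3 and 9 weeks no member passed in either genotype. In NPC mice 3 of 9 members had an unadjusted p under 0.05 and 4.41% of all genes passed, while edgeR passed 0 members. Mrc1 changed by -0.77 ± 0.25 (adjusted p = 0.0773) and passed with quantile normalization (0.0383), with DESeq2 (0.042) and without NPC replicate C at 3 weeks (0.0176) or B at 9 weeks (0.0296). Folr2 had 82.3, 81.8 and 89.5 normalized counts at 9 weeks, all below the lowest 3-week library, a change of -0.90 ± 0.30 (adjusted p = 0.078) that passed with quantile normalization (0.0144), with DESeq2 (0.034) and without NPC replicate A at 3 weeks (0.0477). Ms4a7 changed by 1.84 ± 0.79 (adjusted p = 0.184) and Cbr2 by -0.78 ± 0.48 (adjusted p = 0.34).

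In WT mice 4 of 9 had an unadjusted p under 0.05 between these ages and 0.477% of all genes passed, edgeR passed 0 members, and DESeq2 passed Mrc1 (adjusted p = 0.0249) and F13a1 (adjusted p = 0.0336). Mrc1 changed by -0.82 ± 0.23 in limma (adjusted p = 0.133) with no overlap between ages, and passed there once NPC replicate C at 3 weeks was left out of the fit (0.0431). Ms4a7 changed by 2.34 ± 0.74 (adjusted p = 0.222) and F13a1 by 2.05 ± 0.70 (adjusted p = 0.303) in WT mice.

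NPC and WT mice were then set against each other at each age, which asks how the disease model differs. At 1 week no member passed in limma, edgeR or DESeq2, no member had an unadjusted p under 0.05, and 1.45% of all genes passed in either direction. Mrc1 averaged 7444 ± 468 normalized counts in NPC mice and 7264 ± 2202 in WT mice (SD, n = 4 each). Cbr2 changed by 0.67 ± 0.45 (adjusted p = 0.644), Stab1 by 0.43 ± 0.31 (adjusted p = 0.68), Pf4 by -1.24 ± 0.76 (adjusted p = 0.584) and F13a1 by -0.86 ± 0.70 (adjusted p = 0.733). The intervals were wide: that of Pf4 ran from -2.79 to 0.32.

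At 3 weeks 4 of 9 members were higher in NPC mice, beside 14.3% of all genes tested, and none was lower. Ms4a7 had 68.7, 136, 266 and 75.4 normalized counts in NPC mice against 6.20, 13.6, 0 and 12.5 in WT mice. This was a 19.2-fold rise (95% interval 6.78 to 54.6, adjusted p = 0.000125). The WT library at 0, replicate C, enlarged this fold. With each library left out in turn, its log2 change ranged between 3.39 and 4.68, against 4.27 with all libraries, and passed every time. Cbr2 had 87.2, 90.7, 253 and 151 in NPC mice against 30.0, 11.9, 35.4 and 24 in WT mice, 5.41-fold higher (2.86 to 10.2, adjusted p = 0.000271). Neither gene's groups overlapped, and in both the highest NPC library was replicate C, the one that stood apart.

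Mrc1 was 2.45-fold higher in NPC mice at 3 weeks (95% interval 1.75 to 3.41, adjusted p = 0.00023), with 1000, 1135, 623 and 1207 normalized counts against 351, 353, 631 and 302 in WT mice. The groups overlapped only through replicate C on each side, the lowest NPC library and the highest WT library. Folr2 was 2.34-fold higher (1.58 to 3.45, adjusted p = 0.00203), with 128, 125, 233 and 169.7 in NPC mice against 98.2, 54.6, 65.5 and 58.5 in WT mice and no overlap. The Folr2 call ended when only the compared groups were fitted (adjusted p = 0.0553). Without NPC replicate C, 4 members still passed. Stab1 changed by -0.42 ± 0.31 (adjusted p = 0.312).

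Some blood-cell markers differed between the genotypes at 3 weeks as well. Summed neutrophil markers ranged between 117 and 593 normalized counts in NPC mice and between 6.24 and 135 in WT mice, with overlap, and 2 of 7 tested, Camp and S100a8, were higher in NPC mice (5 of 7 had an unadjusted p under 0.05, with a median log2 change of 2.76). Summed monocyte markers ranged between 317 and 372 in NPC mice and between 372 and 478 in WT mice, and 2 of 7 tested were lower, Ccr2 and S100a4. The median log2 change of these 7 was 0.57, so most of them pointed higher in NPC mice without passing. Summed platelet markers (9 genes) ranged between 241 and 356 in NPC mice and between 851 and 1027 in WT mice, without overlap. This sum mostly followed Gp9, which reached up to 1103 over the 41 libraries, while no other gene of the list passed 76.6 (Itga2b). Of 5 tested, 1 was higher (Clec1b) and 2 were lower (Gp9 and Treml1), while Ppbp, a platelet chemokine gene, was at 0 in 40 of the 41 libraries. The part of these cells in the members' changes was not tested.

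At 6 weeks members moved both ways, with 3 higher in NPC mice (8.76% of all genes) and 2 lower (6.5% of all genes). Mrc1 had 830.0, 659.9, 671 and 859 normalized counts in NPC mice against 297, 305, 319 and 321 in WT mice, 2.41-fold higher (95% interval 1.73 to 3.36, adjusted p = 0.00025). Folr2 was 2.13-fold higher (1.44 to 3.15, adjusted p = 0.00633), with 163, 139, 145 and 125 in NPC mice against 73.6, 64.9, 67.4 and 60.4 in WT mice. The libraries of both genes were tightly grouped within each genotype and did not overlap between genotypes.

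Ms4a7 was 7.79-fold higher at 6 weeks (95% interval 2.74 to 22.1, adjusted p = 0.0056), with 189, 385, 449.6 and 77.1 normalized counts in NPC mice against 24.9, 41.1, 17.8 and 33.4 in WT mice. The 2 highest NPC libraries were replicates B and C, which also had the highest summed astrocyte markers of the group (14334 and 14303 normalized counts over 7 genes, against 11292 in replicate A and 9923 in replicate D, and between 9546 and 10653 in WT mice). Without B and C together the calls of Ms4a7 (adjusted p = 0.2), Folr2 (0.0589) and Lyve1 (0.0929) ended, and 2 of 5 members passed, with 2 NPC libraries left. Replicates B and C also held relatively less RNA of long transcripts. Their length tilt, described below, was -0.2245 and -0.256, against 0.2782 in replicate A and 0.2277 in replicate D. The part of the astrocyte RNA or of the length tilt in these results was not tested.

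The 2 members lower in NPC mice at 6 weeks were F13a1 and Lyve1. F13a1 had 10.5, 18.4, 10.8 and 3.91 normalized counts in NPC mice against 57.4, 151, 67.4 and 52.8 in WT mice, with no overlap, and fell by 2.83 ± 0.70 (adjusted p = 0.00538). Lyve1 was at 0 in all 4 NPC libraries against 4.33, 6.62, 8.89 and 12.9 in WT mice (adjusted p = 0.0124). In limma Lyve1 changed by -3.11 ± 0.86, with an interval from -4.87 to -1.36. The WT mean of 8.19 was 9.79 times the value of 3 reads over the NPC group, or 0.837 normalized counts. That ratio leaves out the spread between libraries, so it is not a lower limit of the change. The Lyve1 call ended with a pseudocount of 8 (adjusted p = 0.0791). With only the compared groups fitted, Lyve1 missed the filter on low values (10 normalized counts in 3 libraries) and was not tested. Its WT values rested on 4 to 12 reads per library. Cbr2 changed by 0.86 ± 0.45 (adjusted p = 0.209), although its lowest NPC library (46.9) lay above its highest WT library (41.1), and Stab1 by 0.56 ± 0.31 (adjusted p = 0.239).

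At 9 weeks 3 members were higher in NPC mice, beside 11.2% of all genes, and none was lower. Mrc1 had 447, 821 and 488 normalized counts in NPC mice against 235, 197, 203 and 258 in WT mice, 2.53-fold higher (95% interval 1.77 to 3.62, adjusted p = 0.000276). Ms4a7 had 632, 431 and 275 against 76.7, 37.7, 35.7 and 7.53, which made it 13.6-fold higher (4.40 to 41.9, adjusted p = 0.000935). Both sets of groups stood apart without overlap.

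Cbr2 was 2.97-fold higher at 9 weeks (95% interval 1.49 to 5.90, adjusted p = 0.0217), with 117, 64.8 and 58.8 normalized counts in NPC mice against 40.9, 14.7, 9.92 and 63.6 in WT mice, where WT replicate D reached into the NPC range. This call ended without NPC replicate A (adjusted p = 0.144), without WT replicate B (0.0765) or C (0.103), with quantile normalization (0.0611), with edgeR (0.0528) and with only the compared groups fitted (0.0522). Folr2, which was higher at 3 and 6 weeks, had 82.3, 81.8 and 89.5 in NPC mice against 102, 92.1, 72.4 and 77.8 in WT mice at 9 weeks, and the groups overlapped. The change in the genotype difference of Folr2 between 3 and 9 weeks was -1.24 ± 0.40 (adjusted p = 0.196). No member passed that test in limma, edgeR or DESeq2, 1 had an unadjusted p under 0.05, and 0.456% of all genes passed. Stab1 changed by 0.25 ± 0.33 (adjusted p = 0.658) at 9 weeks.

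**Figure D3:**
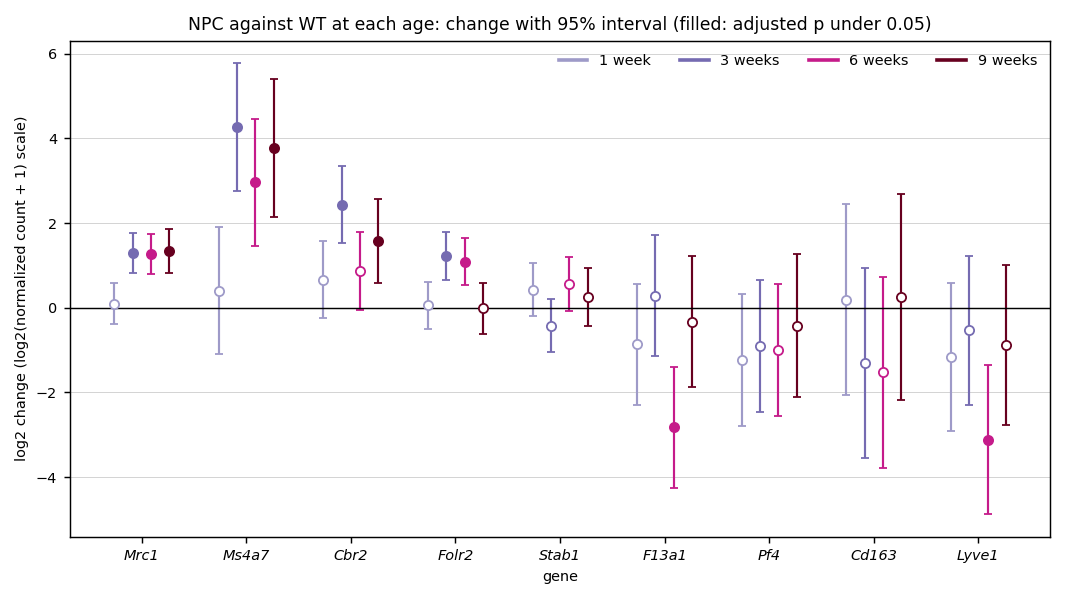
NPC minus WT change of each member at 1, 3, 6 and 9 weeks (log2(normalized count + 1) scale) with 95% intervals; filled points passed an adjusted p of 0.05. Mrc1 and Ms4a7 are filled at 3, 6 and 9 weeks and open at 1 week, and F13a1 and Lyve1 are filled below 0 at 6 weeks.

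Mrc1 and Ms4a7 thus passed at 3, 6 and 9 weeks, but along different courses. Mrc1 was lower at every later age than at 1 week in both genotypes and between 2.41 and 2.53-fold higher in NPC mice from 3 weeks on. Ms4a7 averaged 49.8 ± 17.2, 137 ± 91.7, 275 ± 172 and 446 ± 179 normalized counts at 1, 3, 6 and 9 weeks in NPC mice, and 47.5 ± 42.3, 8.08 ± 6.30, 29.3 ± 10.1 and 39.4 ± 28.4 in WT mice (SD, n = 4, or 3 for NPC at 9 weeks). Per kilobase of exon, Mrc1 was at 109 normalized counts in NPC mice and 41.6 in WT mice at 9 weeks, while Ms4a7 was at 260.2 in NPC mice and 23.0 in WT mice. Over the 9 members the median NPC minus WT change was 0.10 at 1 week, 0.29 at 3 weeks, 0.56 at 6 weeks and 0.25 at 9 weeks, beside medians over all genes between -0.04 and 0.03.

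PLX5622 was compared with the control arm in NPC mice at 9 weeks, which asks how the sorted cells differ under CSF1 receptor inhibition. Of the 9 members, 6 passed the filter on low values in these 10 libraries, and 1 of these, Ms4a7, was higher with PLX5622, beside 0.637% of the 12877 genes tested. Ms4a7 had 1014, 547, 945, 1604 and 1120 normalized counts with PLX5622 against 247, 439, 426, 544 and 206 in controls, 2.82-fold higher (95% interval 1.78 to 4.48, adjusted p = 0.0417). The groups touched without overlapping, at 547 in PLX5622 replicate 2 and 544 in control replicate 4. The call ended without PLX5622 replicate 1 (adjusted p = 0.0677), 3 (0.0814) or 4 (0.101), without control replicate 1 (0.0656), 2 (0.0745), 3 (0.0813), 4 (0.0572) or 5 (0.11), and with no filter on low values (0.0646).

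Folr2 lay lower with PLX5622. It had 15.7, 51.7, 36.9, 28.9 and 38.2 normalized counts with PLX5622 against 75.4, 107, 87.7, 110.4 and 98.6 in controls, all 5 below all 5, a change of -1.54 ± 0.36 that did not pass in limma (adjusted p = 0.0691). It passed with DESeq2 (adjusted p = 0.00311) and without PLX5622 replicate 5 (0.0471). Its PLX5622 mean of 34.3 ± 13.2 was the lowest of the 10 groups and did not overlap the next, WT mice at 6 weeks (66.6 ± 5.53).

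F13a1 had 158, 114, 165, 334 and 28.6 normalized counts with PLX5622 against 52.3, 59.1, 13.3, 23.7 and 35.4 in controls. Replicate 5 lay within the control range and the other 4 above it, and the change of 1.90 ± 0.60 did not pass in limma (adjusted p = 0.164) but passed with DESeq2 (0.00941) and without PLX5622 replicate 5 (0.021). Stab1 had 46036, 25113, 24572, 38871 and 32451 with PLX5622 against 28616, 17869, 21355, 26405 and 21584 in controls, with overlap, and changed by 0.51 ± 0.18 (adjusted p = 0.22). With a replicate block Stab1 passed (adjusted p = 0.0214), but only 4 of 5 numbered pairs correlated above 0.1, so the numbers were not taken to pair the mice.

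The remaining members did not separate the arms. Mrc1 had 813, 509.7, 518, 775 and 668 normalized counts with PLX5622 against 478, 559.5, 527, 474 and 789 in controls, and changed by 0.21 ± 0.19 (adjusted p = 0.641). Cbr2 had 147, 37.3, 38.7, 116 and 121 with PLX5622 against 110.0, 70.4, 95.7, 64.8 and 107 in controls, so the PLX5622 libraries lay on both sides of the controls. Pf4 had 0 to 17.0 normalized counts with PLX5622 and 1.77 to 7.44 in controls, Cd163 0.879 to 1.91 and 0 to 15.8, and these were not tested. Lyve1 was at 0 in all 5 PLX5622 libraries, where 3 reads over the group would be 0.55 normalized counts, and at 0 in 3 of 5 controls, so no fold is given.

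**Figure D4:**
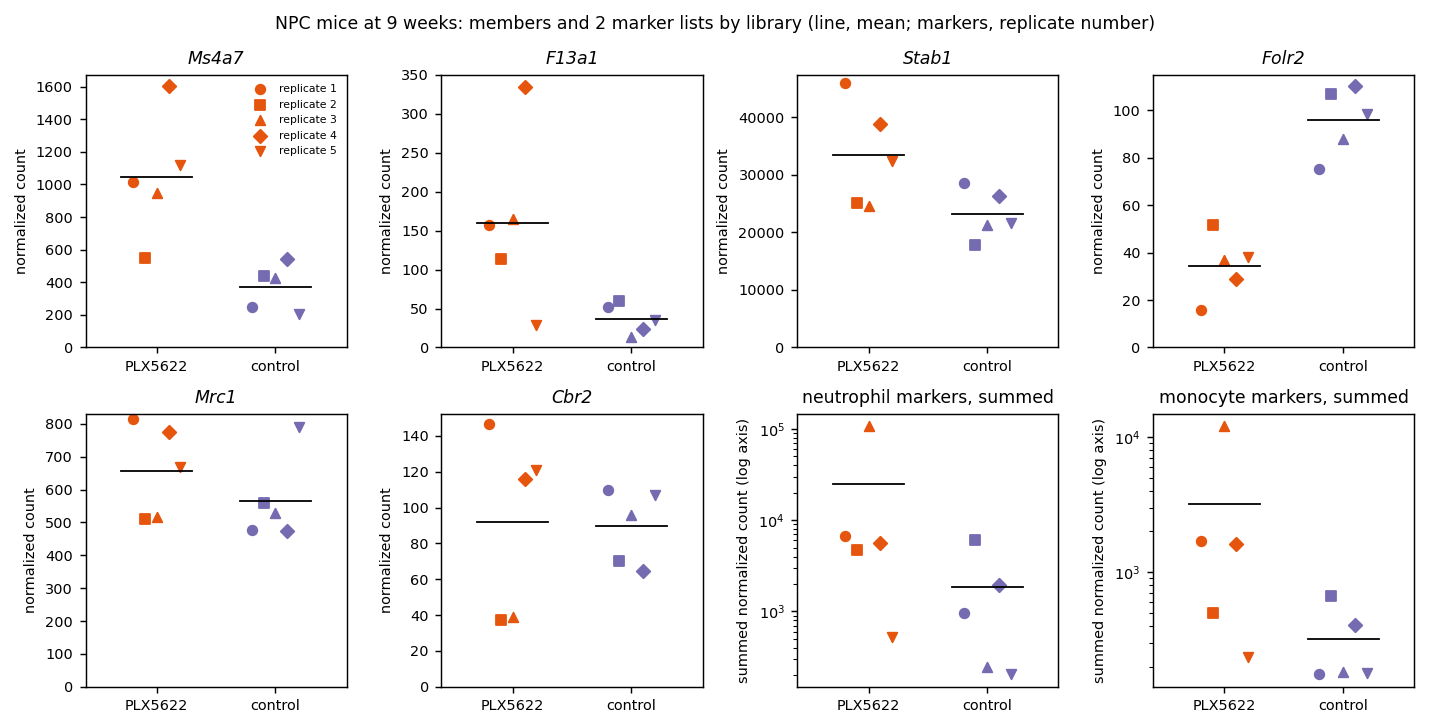
Normalized counts of the 6 tested members, and summed neutrophil and monocyte markers (log axes), in the 5 PLX5622 and 5 control libraries of NPC mice at 9 weeks; lines are means and marker shapes give the replicate number. Ms4a7 lies higher and Folr2 lower with PLX5622 without overlap, and PLX5622 replicate 3 holds the highest neutrophil and monocyte sums.

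Markers of blood cells were followed in the same libraries. The summed neutrophil markers (7 of 8 listed genes in the table) were 6774, 4714, 107137, 5645 and 525 normalized counts with PLX5622, against 953, 6024, 244, 1961 and 205 in controls. Summed monocyte markers (8 genes) were 1705, 502, 11985, 1607 and 237 with PLX5622, against 176, 661, 183, 409 and 179 in controls. None of the 7 genes tested in each list passed, with median log2 changes of 2.83 for neutrophils and 1.45 for monocytes. PLX5622 replicate 3 had the highest sums of both lists, with Ms4a7 at 945 and F13a1 at 165 normalized counts. Among the PLX5622 libraries, replicate 5 was lowest in both lists and in F13a1, with Ms4a7 at 1120. The summed microglia markers (12 genes) were between 524046 and 855441 with PLX5622 and between 679486 and 918433 in controls. The part of these cells in the changes of Ms4a7, F13a1 and Folr2 was not tested.

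The control arm was also set against untreated NPC mice of the same age, which tests whether the arms of the drug experiment resembled the age series. No member passed in limma, edgeR or DESeq2, none had an unadjusted p under 0.05, and 0% of 14312 genes passed. Mrc1 averaged 566 ± 129.9 normalized counts in the control arm and 585 ± 205 in untreated NPC mice, and Ms4a7 averaged 373 ± 142 and 446 ± 179 (SD, n = 5 and 3). A p that misses the threshold does not show that the groups were alike.

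Ordered by level, most groups ran into their neighbours. For Mrc1, 7 of 9 neighbouring pairs overlapped, and the gaps lay between WT mice at 1 week and NPC mice at 3 weeks and between WT mice at 6 and at 9 weeks. For Ms4a7 also 7 of 9 overlapped, with gaps between NPC mice at 3 weeks and at 1 week and between WT mice at 6 and at 3 weeks. These gaps separate neighbours by mean only. NPC mice at 3 weeks (68.7 or more) overlapped WT mice at 1 week (up to 108) and at 9 weeks (up to 76.7). WT mice at 3 weeks (up to 13.64) overlapped WT mice at 1 week (from 13.59) and at 9 weeks (from 7.53). Folr2 had 6 overlapping pairs, with gaps below the 1-week groups, below NPC mice at 6 weeks and above the PLX5622 group. In Pf4, Cd163, Lyve1, F13a1, Cbr2 and Stab1 every neighbouring pair overlapped. The highest group mean was 33.3 times the lowest for Mrc1, 129.5 times for Ms4a7, 14.5 times for Folr2 and 2.92 times for Stab1.

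Of 24 other genes known from border macrophages, 20 were tested in the age series. Between 1 and 3 weeks 6 of them fell in NPC mice and 5 in WT mice, and none rose, beside 12.8% and 18.4% of all genes that fell. In NPC mice against WT mice, 1 was higher and 2 lower at 1 week, where 0.876% of all genes were higher and 0.577% lower. At 3 weeks 4 were higher and 4 lower, beside 14.3% higher and 12.6% lower of all genes. At 6 weeks 5 were higher and 3 lower, beside 8.76% and 6.5%. At 9 weeks 7 were higher and 4 lower, beside 11.2% and 7.77%. Dab2, an endocytic adaptor, was 1.79-fold higher in NPC mice at 1 week (adjusted p = 0.034), 2.60-fold at 3 weeks (adjusted p = 2.21e-05), 3.74-fold at 6 weeks (adjusted p = 1.53e-07) and 8.61-fold at 9 weeks (adjusted p = 5.13e-11). Igfbp4, which binds insulin-like growth factors, was lower in NPC mice at the same ages, with log2 changes of -0.92, -2.10, -2.23 and -1.98 (adjusted p between 4.84e-11 and 0.00142). With PLX5622, 2 of 18 tested genes were higher, Lilra5 at 2.83-fold (adjusted p = 0.0166) and Siglec1, the sialic acid receptor sialoadhesin, at 3.80-fold (adjusted p = 0.0264).

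A list of 8 genes that mark both neonatal and disease-associated microglia was followed beside the members. Between 1 and 3 weeks 5 fell and 2 rose in NPC mice, where 12.8% of all genes fell and 12.2% rose. In WT mice 7 of 8 fell, with a median log2 change of -2.85, beside 18.4% of all genes. In NPC mice against WT mice none passed at 1 week, 5 were higher at 3 weeks, and 8 at 6 and at 9 weeks, beside 14.3%, 8.76% and 11.2% of all genes. A list of 12 homeostatic microglia markers went the other way in NPC mice, with 1 higher and 3 lower at 3 weeks, 1 higher and 7 lower at 6 weeks, and 9 lower at 9 weeks, where 12.6%, 6.5% and 7.77% of all genes were lower. These lists share cells and libraries with the members, and their part in the members' changes was not tested.

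Within groups, most pairs of members did not pass a test of correlation, which does not show that they varied on their own. After the mean of each group was removed, 1 of 36 pairs of members passed in both measures over the 41 libraries: Mrc1 and Stab1 (Pearson r = 0.566, permutation p = 0.00022, adjusted p = 0.00792, and Spearman rho = 0.556, permutation p = 0.00031, adjusted p = 0.0112). Without the 2 libraries farthest from the median of Mrc1, r was 0.529. With the group means left in, Mrc1 gave r = 0.847 with Cbr2, a description that mixes differences between groups with those within them.

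Libraries also differed in how much RNA of long transcripts they held, and this moved with the same 2 genes. The length tilt of a library was taken as the rank correlation, over genes, between exon length and the deviation from the group mean, so that a positive value means relatively more long transcripts. Over 41 libraries it correlated with Stab1 (Pearson r = 0.697, permutation p = 2e-05, adjusted p = 0.00018, Spearman rho = 0.655, permutation p = 0.0001, adjusted p = 0.0009) and with Mrc1 (r = 0.5, permutation p = 0.00233, adjusted p = 0.0105, rho = 0.505, permutation p = 0.00172, adjusted p = 0.00774), and not past the threshold with the other 7. Without the 2 libraries of most extreme tilt r was 0.669 for Stab1 and 0.455 for Mrc1. Stab1 has 7999 exon bases and Mrc1 5374, the longest of the 9. Replicate C of NPC mice at 3 weeks had the lowest tilt (-0.396) and the lowest Stab1 and Mrc1 of its group.

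The tilt also differed between groups when deviations were taken from the mean of all libraries. It lay between 0.0517 and 0.291 in WT mice at 3 weeks and between -0.271 and -0.0612 in WT mice at 1 week, without overlap, and between -0.378 and 0.216 in NPC mice at 3 weeks and between -0.265 and 0.00923 in NPC mice at 1 week. The median at 3 weeks was -0.0067 in NPC mice and 0.229 in WT mice. In the drug arms it lay between -0.0591 and 0.159 with PLX5622 and between -0.098 and 0.0971 in controls. The part of the tilt in the age and genotype changes was not tested.

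**Figure D5:**
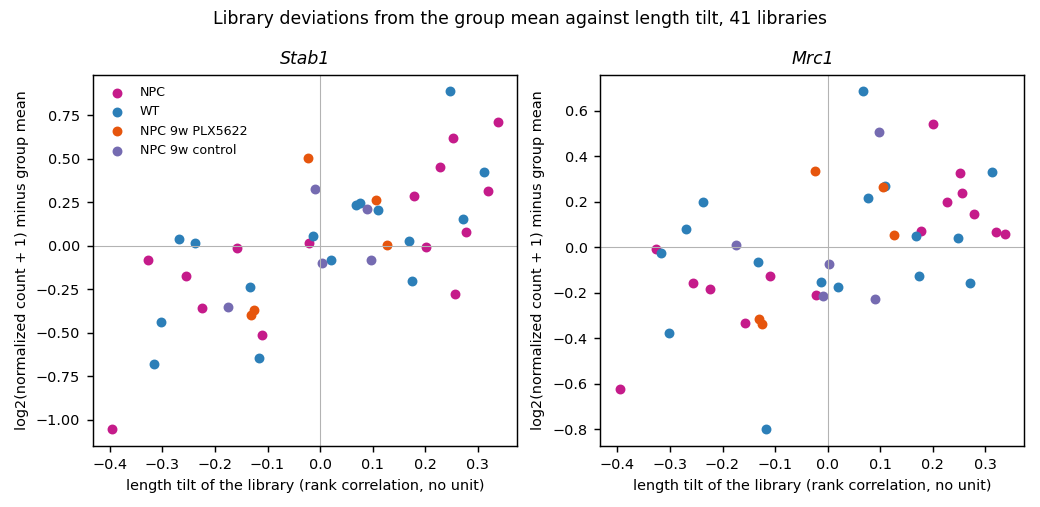
Deviation of Stab1 and Mrc1 from their group mean (log2(normalized count + 1)) against the length tilt of each of the 41 libraries, which is a rank correlation without unit. Both genes run upward with the tilt, with r = 0.697 for Stab1 and r = 0.5 for Mrc1.

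Genes outside the set whose pattern was most like that of a member were found among 10010 genes averaging 100 normalized counts or more, by Pearson r over the 41 libraries with group means left in. Mrc1 was closest to Gas6 (r = 0.946) and Sulf2 (r = 0.936), Ms4a7 to Lgals3 (r = 0.938) and Arl11 (r = 0.935), Cbr2 to Fcna (r = 0.903), Folr2 to Fam92a (r = 0.891) and Stab1 to Pacs2 (r = 0.895). The best matches of the other members were weaker, at 0.671 for Pf4, 0.664 for Lyve1, 0.611 for F13a1 and 0.518 for Cd163. With group means removed other genes came first, at 0.724 for Mrc1 (Kif16b) and 0.773 for Ms4a7 (Tmem205). Gas6, a ligand of the Axl receptor, averaged 42030 normalized counts in NPC mice and 39210 in WT mice at 1 week, and 12330 in NPC mice and 6454 in WT mice at 9 weeks. Lgals3, a galactose-binding lectin, averaged 356 in NPC mice and 341 in WT mice at 1 week, 3210 in NPC mice and 219 in WT mice at 9 weeks, and 5462 with PLX5622 and 2627 in controls. These single matches were listed after the data had been seen. Averaged over all members with group means removed, the 8 closest genes were Pltp, Gpnmb, Pgap1, Stat5a, Hip1, Dock6, Smarcc1 and Sh3glb2, with a mean r between 0.213 and 0.242. These points share libraries, depth and groups.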

How the data were processed

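RNA of sorted cerebellar CD11b+ Tmem119+ cells was made into SMART-seq v4 libraries and read as 150-base pairs, per the labels' protocols. The deposited signal values are gene counts that the authors divided by 1 size factor per library. FastQC 0.11.4, STAR 2.5.1b and DESeq2 with build mm9 are named in the submitters' processing notes, while the counting tool and annotation are not given in the sources used here. Dividing each column by its smallest step gave whole reads for 100% of values (tolerance 1e-06), and these recovered reads served edgeR 4.0.16 and DESeq2 1.42.0 as alternatives. The reads carry no molecular identifiers, so floors cover counting error only. Columns not used numbered 0.

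The main test was limma 3.58.1 (R 4.3.3) on log2(normalized count + 1), with trend and robust settings, two-sided, Benjamini-Hochberg adjusted over all genes tested and called under 0.05. A gene entered a fit when 3 or more of its libraries reached 10 normalized counts. One fit held the 31 untreated libraries, one the 10 of the drug arms and one all 41, the last for the control arm against untreated mice. Intervals are 95%. The code was tested on simulated data. Each library is labelled as its own sample, and where libraries do not come from separate mice the p-values measure technical spread.

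Alternatives were quantile normalization, rescaling to equal totals, a pseudocount of 8, no low-value filter, edgeR, DESeq2, fitting only the compared groups, a replicate block, leaving out each library, and leaving out replicates B and C of NPC mice at 6 weeks together. At 1 week the deviations of same-letter NPC and WT libraries correlated weakly (all 4 correlations between 0.111 and 0.163). The labels do not say what the letters mark, so they were not taken to pair the mice. The replicate block changed no member's call at 1 week. Every member is plotted by library, and changes are printed for a part of the members in each comparison (52 uncalled changes are not). Named are other border macrophage genes by the smallest adjusted p, and like genes by mean correlation with group means removed (the list averaged over members with group means left in is not reported here). Correlations used 100000 permutations within groups. The length tilt, over the 13654 of 14312 genes (95.4%) with an exon length in GENCODE vM21, was added after seeing the data. The members and gene lists were chosen with earlier results of these data known. Promoter sequences are RefSeq's.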

Additional observations from a re-analysis of the deposited data

Results flagged for a closer look

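Of 79 sets of replicates tested, 1 per member and group of 4 or 5 libraries, 9 held a library set apart from the others. A library was flagged by its gap to the nearest one relative to the range of the set, whatever the size of the gap. The cut-off flags about 1 in 20 sets when values are normally distributed. Normalized counts, above all those at few reads, need not be, so the number flagged does not measure an excess over chance. Mrc1 accounted for 3 of them. In WT mice at 1 week replicate A had 3992 normalized counts, with the next library at 7976. In WT mice at 3 weeks replicate C had 631, with the next at 353. In the control arm replicate 5 had 789, with the next at 559.5.

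Lyve1 also accounted for 3, at few reads. Replicate D of NPC mice at 1 week had 16.9 normalized counts (21 reads), with the next at 3.77. Replicate D of NPC mice at 3 weeks had 2.10 (2 reads), while the other 3 libraries were at 0. Replicate B of WT mice at 3 weeks had 5.97 (7 reads), with the next at 0.959. The remaining ones were 1 library each of Cbr2, F13a1 and Cd163. Cbr2 had 365 in replicate C of NPC mice at 1 week, with the next at 401. F13a1 had 151 in replicate B of WT mice at 6 weeks, with the next at 67.4. Cd163 had 25.9 in replicate D of WT mice at 9 weeks, with the next at 4.09. Why these libraries stood apart was not tested.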

How the results depend on the processing

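The number of members called changed by over 1.5 times in 5 comparisons. Between NPC and WT mice at 6 weeks it was 2 without NPC replicates B and C together, against 5. For 9 against 3 weeks it was 2 with quantile normalization and 2 with DESeq2 in NPC mice, and 2 with DESeq2 in WT mice, against 0 in each. For the genotype difference at 3 weeks less that at 1 week it was 1 with quantile normalization, 2 with edgeR and 4 with DESeq2, against 0. With PLX5622 it was 0 with no filter on low values, 3 with DESeq2 and 2 with the replicate block, against 1. Leaving out 1 library gave between 0 and 1 in NPC mice and between 0 and 1 in WT mice for 9 against 3 weeks, between 0 and 2 for the genotype difference, and between 0 and 3 for PLX5622. The cause was not tested. No printed change reversed, and of 52 uncalled member changes not printed, 26 changed sign in some setting and 0 changed call. The replicate block changed no other member's call than that of Stab1 with PLX5622. Over all genes tested, calls numbered 204 for NPC against WT mice at 1 week (453 at most with 1 library left out), 3777 at 3 weeks (769 with only those groups fitted), 2143 at 6 weeks (872 without B and C) and 2665 at 9 weeks (4429 with only those groups). They numbered 620 for 9 against 3 weeks in NPC mice (20 with only those groups) and 67 in WT mice (222), 3509 for 3 against 1 week in NPC mice (1459), 149 for the genotype difference at 3 weeks less that at 1 week (479 with DESeq2), 64 for that at 9 weeks less that at 3 weeks (8 with the replicate block), 122 with PLX5622 (606 with DESeq2) and 0 for the control arm (12 with no filter). Rescaling to the same total moved the median of all genes by -0.135 at 3 weeks between genotypes, -0.205 and -0.102 for 3 against 1 week in NPC and WT mice, and 0.105 for 9 against 3 weeks in NPC mice. Quantile normalization moved it by 0.103 for 3 against 1 week and -0.139 for 9 against 3 weeks in NPC mice, and by -0.114 for the genotype difference at 9 weeks less that at 3 weeks. The share of calls that were higher also moved. Under equal totals it was 38.1% (53.1% as reported) between genotypes at 3 weeks, 48.8% (59.1%) at 9 weeks, 24.8% (48.7%) and 32.4% (46.0%) for 3 against 1 week in NPC and WT mice, and 66.3% (52.3%) and 68.9% (47.8%) for 9 against 3 weeks in NPC and WT mice. With edgeR it was 65.5% between genotypes at 3 weeks and 38.8% for 9 against 3 weeks in NPC mice, and with quantile normalization 46% (57.8%) for the later genotype difference. With only the compared groups fitted, Lyve1 missed the filter on low values between genotypes at 6 weeks and for 3 against 1 week in WT mice. It was not tested there. Scarce members (Pf4, Cd163, Lyve1) are limited by depth.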
